A study of Mus musculus with 15 samples.

Results

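Small nucleolar RNAs (snoRNAs) on 15 mouse expression arrays are described here. The members are the transcript clusters (array probe sets, each standing for 1 annotated transcript) whose platform annotation names exactly 1 gene symbol, starting with Snord or Snora. This rule gave 56 clusters with 51 symbols, among 21789 clusters with exactly 1 symbol and 23410 tested clusters with at least 1. Of the 56 clusters, 33 belong to the box C/D class (Snord, 31 symbols) and 23 to the box H/ACA class (Snora, 20 symbols). A further 41 clusters name a snoRNA together with other genes or several snoRNAs and are not members.

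RNA came from TER119+ cells of fetal liver, taken at E13.5 from FVB/NJ mice. TER119 marks maturing erythroid cells, and magnetic beads were used to purify them. The groups were DKO, which carry both Klf3-/- and Klf8gt/gt (doubly mutant, n = 4), Klf3KO, which are Klf3-/- (Klf3-null, n = 3), Klf8gt, which are Klf8gt/gt and have a gene trap in Klf8 (Klf8-trap, n = 4), and WT with neither allele (wild type, n = 4). All groups share the strain, the stage and the cell purification, and the labels do not say that each array is a separate embryo, so the p-values reflect only how these samples vary, part of which may be technical. KLF3 and KLF8 are zinc finger repressors that bind CACCC-type DNA motifs.

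Box C/D snoRNAs guide the methylation of ribose in ribosomal RNA, and box H/ACA snoRNAs guide the conversion of uridine to pseudouridine. A few of either class instead help to cut the precursor of ribosomal RNA. In mammals most snoRNAs lie in introns of host genes, often genes of ribosomal proteins or other parts of the translation machinery, and are trimmed out of the spliced intron. Mature snoRNAs have no poly(A) tail, whereas the kit named in the labels primes from poly(A). The columns used to clean the RNA also retain short RNAs poorly. Which form of transcript these clusters report (snoRNA, intron or unspliced host transcript) was not tested.

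The deposited values are log2 signals, with array medians between 6.28 and 6.41. In total 48 of the 56 clusters had a mean above 6.32, the mean of the array medians, and 8 did not (Snord37, Snord38a, Snord61, Snora2b, both Snord58b clusters and both Snord118 clusters). None lay under the lower quartile on every array. Symbols with more than 1 cluster were Snora21, Snora3, Snora30, Snord118 and Snord58b. The clusters of Snora30 held identical values, as did those of Snord118, and the largest gap between clusters of a symbol on any array was 0.38 (Snora21). The signal of Klf3 was 11.37 ± 0.28 in DKO, 11.32 ± 0.14 in Klf3KO, 10.27 ± 0.04 in Klf8gt and 10.27 ± 0.17 in WT (SD). That of Klf8 was 7.29 ± 0.55 in DKO, 8.71 ± 0.26 in Klf3KO, 5.39 ± 0.09 in Klf8gt and 5.36 ± 0.18 in WT. Neither targeted gene was thus lower in the arrays labelled as mutant for it. The Klf8 signal of WT lies below the array medians, and the sources used here do not say which part of either gene is altered or probed, so these signals do not check the labels, and groups are called as labelled. Y-linked genes and Xist put 9 arrays as male and 6 as female. All 4 WT arrays were male, against 2 of 4 DKO, 1 of 3 Klf3KO and 2 of 4 Klf8gt arrays. With sex as a covariate the median snoRNA difference between DKO and WT was 0.41, and 2 calls described below were lost, Snord15b against WT (adjusted p = 0.0503) and Snord57 against Klf8gt (adjusted p = 0.0620).

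By position in RefSeq (GRCm38.p6), 54 of the 56 clusters lie inside the span of another gene, and both clusters of Snord118, the U8 snoRNA of large-subunit rRNA processing, do not. The table gives no strand, so a host here is the shortest span that holds the snoRNA gene. There are 40 distinct hosts, 30 protein-coding and 10 long non-coding, and 16 of them are ribosomal protein genes that hold 24 of the clusters. Of the 9 snoRNA symbols called in any comparison, 7 have a host with a listed promoter, and 4 of these promoters are shown (the hosts of Snord15b, Snord33, Snord37 and Snord57). Each is the 250 bases before the gene's start from RefSeq, GRCm38.p6, written 5′ to 3′ on the gene's strand, with capitals marking any match to CCNCNCCC, a KLF-type motif searched on both strands.
Rps3 promoter, host of Snord15b, chr7:99483710-99483959, minus strand: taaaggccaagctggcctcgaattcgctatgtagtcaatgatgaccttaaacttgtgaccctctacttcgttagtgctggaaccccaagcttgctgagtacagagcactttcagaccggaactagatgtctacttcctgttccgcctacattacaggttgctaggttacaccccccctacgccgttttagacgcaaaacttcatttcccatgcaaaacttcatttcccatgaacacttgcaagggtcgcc
Rpl13a promoter, host of Snord33, chr7:45128746-45128995, minus strand: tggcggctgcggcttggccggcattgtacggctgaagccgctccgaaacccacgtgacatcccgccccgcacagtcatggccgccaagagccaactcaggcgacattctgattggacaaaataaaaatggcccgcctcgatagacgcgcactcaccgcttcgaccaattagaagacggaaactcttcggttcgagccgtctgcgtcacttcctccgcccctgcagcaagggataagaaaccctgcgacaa
Eef2 promoter, host of Snord37, chr10:81176381-81176630, plus strand: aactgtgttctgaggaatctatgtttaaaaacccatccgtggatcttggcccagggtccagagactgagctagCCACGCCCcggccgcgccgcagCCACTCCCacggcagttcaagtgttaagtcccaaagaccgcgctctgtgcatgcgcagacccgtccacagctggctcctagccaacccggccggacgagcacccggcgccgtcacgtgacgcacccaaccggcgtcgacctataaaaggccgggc
Nop56 promoter, host of Snord57, chr2:130274162-130274411, plus strand: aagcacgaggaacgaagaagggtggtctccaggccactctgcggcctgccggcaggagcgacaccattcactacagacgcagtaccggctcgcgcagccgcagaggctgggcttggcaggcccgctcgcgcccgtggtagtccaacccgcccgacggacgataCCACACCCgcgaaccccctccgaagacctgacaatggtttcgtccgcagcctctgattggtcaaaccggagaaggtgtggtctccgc
The motif had 2 matches upstream of Eef2, 1 upstream of Nop56 and 0 upstream of Rps3 and Rpl13a. The 3 examined promoters not shown also held matches, with 1 in that of Rplp2 (host of Snora52). There were 7 in Rpsa (host of Snora62) and 21 in Gm36220 (host of Snord104), where they overlap in C-rich runs. Among host genes with a listed promoter, taken as 1 promoter a gene, 15 of 30 (50.0%) held at least 1 match. Of all 32851 promoters in the table, counted by promoter and not by gene, 45.9% did. A match is a description of the letters and says nothing of binding.

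The first question was how snoRNA signals differ between each genotype and WT. In DKO arrays 52 of 56 snoRNA clusters had a higher mean than in WT, and the median log2 difference over the 56 was 0.41 (quartiles 0.23 and 0.53). Over all 23410 tested clusters that median was -0.02. The limma test, adjusted by Benjamini-Hochberg over all tested clusters, called 3 snoRNA clusters at 0.05, all higher: Snord37, Snord104 and Snord15b. That is 5.36% of the clusters, beside 3.3% of all tested clusters called in either direction and 1.52% called higher. Among clusters with a mean above the array medians, 2 of 48 snoRNA clusters (4.17%) were called. Of the 13023 tested clusters there 5.24% were called, 304 of them higher. At an unadjusted p under 0.05, 30 of the 56 (53.6%) passed, compared with 17.9% of all tested clusters. Above the array medians these shares were 56.2% and 24.9%. The DKO and WT arrays did not overlap for 10 clusters, all higher in DKO, beside 3.64% of all tested clusters that did so in that direction. The count of 3 calls turned on single arrays. It was 11 without DKO 4, 6 without Klf8gt 1, 5 without DKO 2, 1 without DKO 3 or without WT 2, and 0 without WT 3. For such refits, here and below, the share of all tested clusters called is not given. Their counts show only how far the calls depend on the arrays and settings.

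The difference from WT was unequal among the 4 DKO arrays. The median of signal minus the WT mean over the 56 clusters was 0.40, 0.23, 0.76 and 0.09 in DKO 1 to 4. Klf3KO arrays had 0.13, -0.03 and 0.01, Klf8gt arrays -0.10, 0.26, 0.17 and 0.18, and WT arrays -0.03, 0.05, -0.14 and 0.17. Thus DKO 3 and DKO 1 stood above every other array, whereas DKO 4 lay within the range of the WT arrays and DKO 2 within that of Klf8gt. DKO 3 was the highest of the 15 arrays for 36 of 56 clusters, DKO 1 for 12 and DKO 4 for 0. DKO 4 was the lowest array for 8 clusters. Without DKO 3 the median difference was 0.29 against WT, 0.21 against Klf3KO and 0.09 against Klf8gt. The median over all tested clusters stayed between -0.05 and 0.01 on every array.

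**Figure D1:**
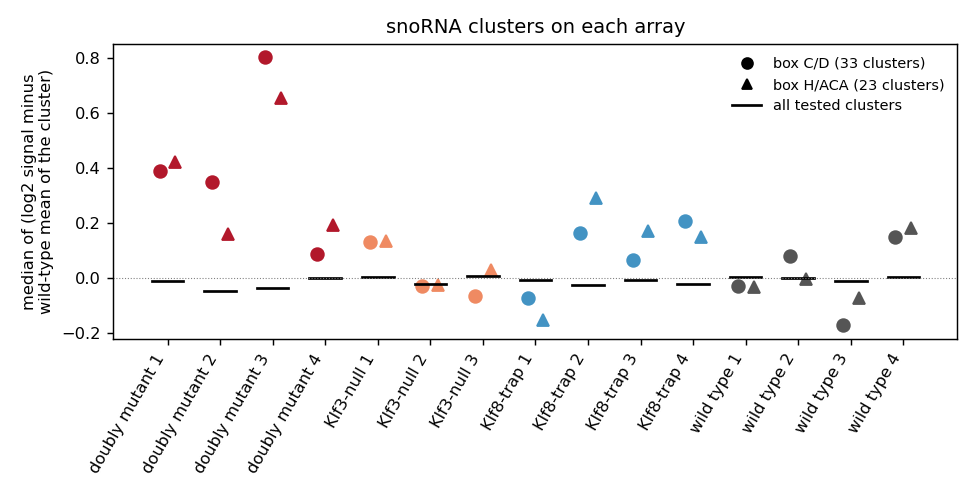
Median, on each array, of log2 signal minus the wild-type mean of the cluster, for the 33 box C/D clusters (circles), the 23 box H/ACA clusters (triangles) and all tested clusters (black bars). DKO 3 reaches 0.80 for box C/D and 0.65 for box H/ACA, DKO 4 lies at 0.09 and 0.19, and the bars of all tested clusters stay near 0.

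Markers of macrophages, the cells that surround maturing erythroblasts in fetal liver, had their lowest group mean in DKO. Of 15 listed genes 14 had a mean above the array medians. Their mean signal was 7.37, 8.21, 8.13 and 8.96 in DKO 1 to 4. It ranged from 8.55 to 9.05 in Klf3KO, from 8.69 to 9.21 in Klf8gt and from 9.14 to 9.47 in WT. All Klf3KO arrays lay below all WT arrays in this mean, beside a median snoRNA difference of 0.02 between these groups. In the limma fit 7 of the 15 genes fell in DKO against WT and 3 against Klf8gt, with 0 higher. With this mean as a covariate the median snoRNA difference between DKO and WT was 0.20 and 0 snoRNA clusters were called. The DKO and WT arrays did not overlap in this mean, so that fit cannot tell macrophage signal from genotype. The part of macrophages in the snoRNA result was not tested, and in bulk samples fewer cells of a type and less RNA per cell cannot be told apart. The 9 measured markers of erythroid cells, all above the array medians, had DKO minus WT values between -0.43 and 1.33 (median -0.29), and 1 of them, Klf1, fell (-0.41 ± 0.11, adjusted p = 0.0487). They averaged 12.31 ± 0.15 in DKO, 12.23 ± 0.12 in Klf3KO, 12.35 ± 0.06 in Klf8gt and 12.44 ± 0.09 in WT (SD). Hepatocyte markers (7 measured) were also bright, at 12.76 ± 0.53 in DKO, 12.97 ± 0.12 in Klf3KO, 13.29 ± 0.24 in Klf8gt and 12.78 ± 0.13 in WT. Megakaryocyte markers (4 measured) averaged 9.44, 9.66, 9.42 and 10.85 in DKO 1 to 4, 10.18 to 10.32 in Klf3KO, 9.52 to 11.15 in Klf8gt and 9.86 to 10.19 in WT, so that DKO 1 to 3 lay below all Klf3KO and WT arrays and DKO 4 above them. Neutrophil and myeloid markers (6 measured) averaged 7.35, 6.74, 6.76 and 6.06 in DKO, 6.36 to 6.90 in Klf3KO, 6.23 to 6.47 in Klf8gt and 6.51 to 6.86 in WT. None of these megakaryocyte or myeloid genes was called, and the part of these cell types in the snoRNA result was not tested.

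Among the box C/D members called in DKO against WT, Snord37 guides methylation of large-subunit rRNA in human and lies in Eef2, the gene of a translation elongation factor. Its log2 signal was 6.05, 6.96, 7.22 and 6.35 in DKO, 5.79, 5.83 and 5.72 in Klf3KO, 5.75, 6.15, 6.05 and 6.32 in Klf8gt, and 5.77, 5.54, 5.37 and 5.94 in WT. Every DKO array lay above every WT and Klf3KO array, and DKO 1 fell among the Klf8gt arrays. The log2 difference from WT was 0.99 ± 0.21 (SE, limma adjusted p = 0.0148). No fold is given, because the WT mean of 5.65 lies below the array medians.

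Snord104, a guide for large-subunit rRNA in human, lies in the non-coding Gm36220. It read 9.14, 8.83, 9.04 and 8.82 in DKO, 8.39, 8.42 and 8.36 in Klf3KO, 8.20, 8.56, 8.44 and 8.51 in Klf8gt, and 8.39, 8.45, 8.11 and 8.68 in WT. All 4 DKO arrays exceeded all 11 arrays of the other groups. The difference from WT was 0.55 ± 0.12 on the log2 scale, or 1.46-fold (limma adjusted p = 0.0160), and from Klf8gt 0.53 ± 0.12, or 1.44-fold (adjusted p = 0.0216).

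Snord15b (U15B), also a guide for large-subunit rRNA, shares its host Rps3 with Snord15a. Its values were 10.58, 10.11, 10.67 and 10.05 in DKO, 9.48, 9.01 and 9.42 in Klf3KO, 9.26, 9.37, 9.20 and 9.29 in Klf8gt, and 9.48, 9.69, 9.32 and 10.05 in WT. DKO arrays were above all single-mutant arrays, and WT 4 reached the level of DKO 4. The difference was 0.72 ± 0.17 against WT (1.65-fold, limma adjusted p = 0.0259) and 1.07 ± 0.17 against Klf8gt (2.11-fold, adjusted p = 0.00185). Against Klf3KO it was 1.05 ± 0.18, with an adjusted p of 0.0549, the smallest of any snoRNA cluster in that comparison. Snord15a had 10.16, 9.75, 10.13 and 8.74 in DKO, 8.87, 8.78 and 9.13 in Klf3KO, 8.18, 9.19, 9.10 and 8.97 in Klf8gt, and 9.14, 9.40, 8.86 and 9.56 in WT. DKO 4 stood apart from the other DKO arrays here, the groups overlapped, and the difference from WT was 0.46 ± 0.28 (adjusted p = 0.431).

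The second question was whether carrying both alleles differs from carrying the Klf8 gene trap alone, which compares DKO with Klf8gt. The median difference over the 56 clusters was 0.25 (quartiles 0.05 and 0.46), 44 clusters were higher in DKO, and 8 (14.3%) were called, all higher. Of all tested clusters 3.35% were called and 1.48% were called higher. Among clusters above the array medians, 16.7% of the snoRNA clusters and 4.95% of all tested clusters were called. The calls comprised 5 box C/D members (Snord15b, Snord33, Snord55, Snord104 and Snord57) and 3 box H/ACA members (Snora52, Snora62 and Snora74a). For 9 clusters the arrays of DKO and Klf8gt did not overlap, all higher in DKO, beside 3.21% of all tested clusters. The labels do not pair the arrays, but same-numbered arrays deviated together in this comparison. With replicate number as a block 5 snoRNA clusters were called. The 8 calls fell to between 3 and 5 when any single array other than DKO 2 or DKO 4 was left out, and stood at 16 without DKO 4.

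Snord33 (U33) guides methylation of small-subunit rRNA in human and lies in Rpl13a together with Snord35a. Its signal was 10.65, 10.01, 10.28 and 9.63 in DKO, 9.33, 9.25 and 9.12 in Klf3KO, 9.36, 8.83, 8.72 and 8.65 in Klf8gt, and 9.39, 9.71, 9.21 and 9.72 in WT. DKO lay above both single mutants without overlap, while 2 WT arrays exceeded DKO 4. The difference was 1.25 ± 0.20 against Klf8gt (2.38-fold, limma adjusted p = 0.00204) and 0.63 ± 0.20 against WT (adjusted p = 0.0949). Klf8gt minus WT was -0.62 ± 0.20, with an adjusted p of 0.263. Snord35a, from the same host, averaged 7.26 ± 0.41 in DKO, 7.02 ± 0.41 in Klf8gt and 6.76 ± 0.19 in WT (SD, n = 4 each), and DKO minus Klf8gt was 0.24 with an adjusted p of 0.578.

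Snord55 guides methylation of large-subunit rRNA in human. It had 9.23, 8.95, 8.93 and 8.68 in DKO, 8.40, 8.14 and 8.49 in Klf3KO, 8.57, 8.26, 8.26 and 8.06 in Klf8gt, and 8.70, 8.69, 8.28 and 8.71 in WT. All WT arrays but WT 3 were just above the lowest DKO array, and both single mutants lay below DKO. DKO minus Klf8gt was 0.66 ± 0.14 (1.58-fold, limma adjusted p = 0.0140).

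Snord57, a guide for small-subunit rRNA in human, sits in Nop56, which itself encodes a core protein of box C/D particles. The values were 10.62, 10.13, 10.46 and 9.61 in DKO, 9.56, 9.30 and 9.31 in Klf3KO, 9.60, 9.55, 9.31 and 9.54 in Klf8gt, and 9.48, 9.90, 9.33 and 9.90 in WT. DKO 4 was only just above the highest Klf8gt array and below WT 2 and WT 4. DKO exceeded Klf8gt by 0.70 ± 0.18 (1.63-fold, limma adjusted p = 0.0495), and the adjusted p with the replicate block was 0.0576.

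The 3 box H/ACA members called against Klf8gt guide pseudouridylation of large-subunit rRNA in human. Snora52, in the ribosomal protein gene Rplp2, had 11.99, 11.43, 11.82 and 11.26 in DKO, 11.27, 11.05 and 11.29 in Klf3KO, 10.91, 11.25, 11.11 and 10.93 in Klf8gt, and 11.12, 11.36, 11.13 and 11.45 in WT. DKO 4 and Klf8gt 2 almost touched, and the difference was 0.58 ± 0.14 (1.49-fold, limma adjusted p = 0.0403, or 0.0550 with the replicate block). Snora62, in the ribosomal protein gene Rpsa, had 8.30, 7.68, 8.34 and 7.39 in DKO, 7.34, 7.04 and 7.44 in Klf3KO, 7.01, 7.35, 7.27 and 6.80 in Klf8gt, and 7.40, 7.74, 7.02 and 7.55 in WT. WT overlapped DKO here and Klf8gt did not, with a difference of 0.82 ± 0.21 (1.76-fold, limma adjusted p = 0.0414). Snora74a (U19), in the non-coding Snhg4, had 9.14, 8.24, 8.81 and 8.16 in DKO, 7.84, 7.56 and 8.11 in Klf3KO, 7.55, 7.92, 7.93 and 7.93 in Klf8gt, and 7.78, 8.09, 7.78 and 8.22 in WT. Its DKO arrays were above all single-mutant arrays, with a difference of 0.75 ± 0.19 from Klf8gt (1.69-fold, limma adjusted p = 0.0468, or 0.0602 with the replicate block). None of the 3 was called against WT.

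**Figure D2:**
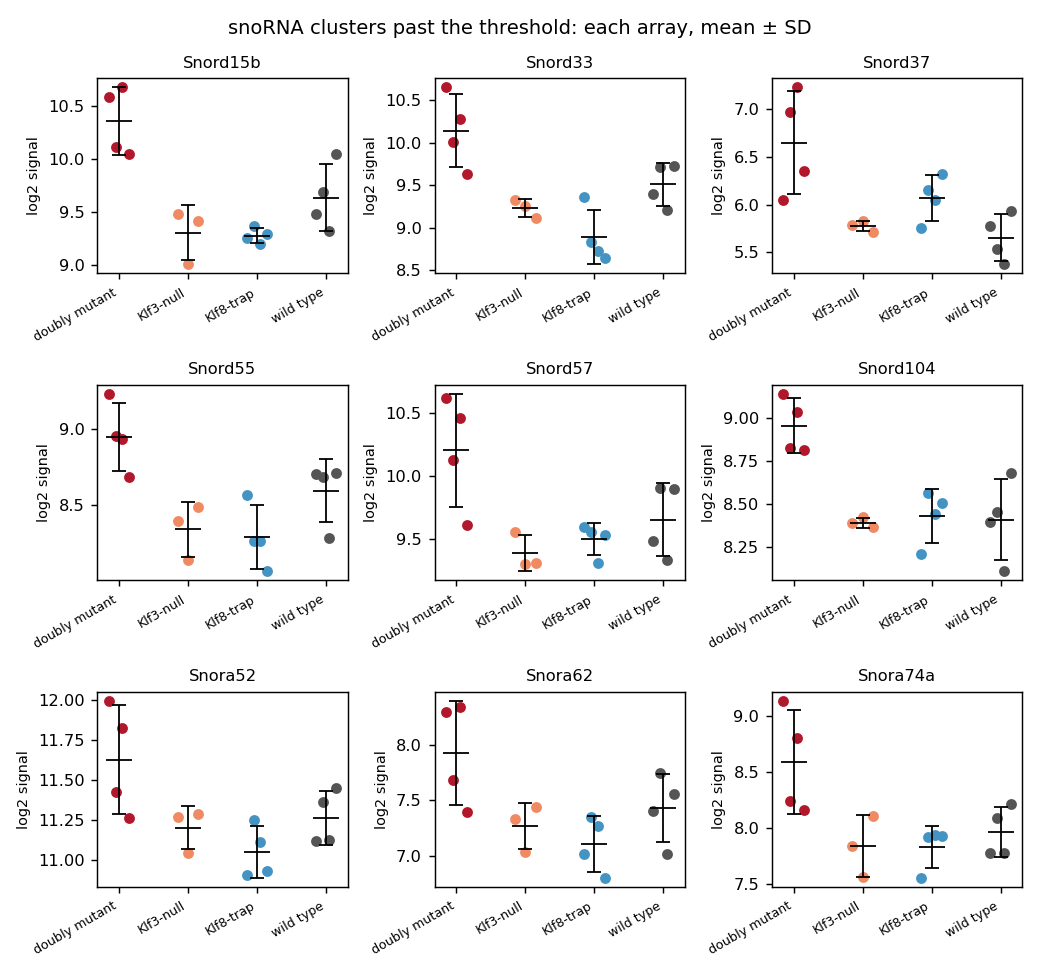
Log2 signal of the 9 snoRNA clusters called in DKO against WT or against Klf8gt; each point is 1 array, and bars give the group mean ± SD (n = 4, 3, 4 and 4). All DKO points of Snord104 lie above all other points, whereas WT points overlap DKO points for Snord15b, Snord33, Snord55, Snord57 and the 3 Snora clusters.

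Against Klf3KO, DKO arrays had a median snoRNA difference of 0.38 (quartiles 0.14 and 0.54), with 47 of 56 clusters higher. No snoRNA cluster was called by limma, beside 0.047% of all tested clusters, although 23 (41.1%) had an unadjusted p under 0.05, compared with 12.9% of all tested clusters. Above the array medians these unadjusted shares were 41.7% and 18.2%. There were 10 calls without DKO 4, 2 without DKO 1, and 1 each without DKO 2, WT 3 or WT 4. For 11 clusters the DKO and Klf3KO arrays did not overlap, all higher in DKO, beside 4.5% of all tested clusters. After Snord15b the largest differences among clusters above the array medians were 1.01 ± 0.32 for Snord22 (U22, needed for small-subunit rRNA maturation in Xenopus, hosted by Snhg1; adjusted p = 0.203) and 0.94 ± 0.24 for Snord82 (hosted by Ncl, the nucleolin gene; adjusted p = 0.141). Snord22 read 11.00, 10.94, 11.26 and 9.34 in DKO, and 9.83, 9.35 and 9.70 in Klf3KO. Snord82 read 8.65, 8.69, 8.50 and 7.51 in DKO, and 7.58, 7.04 and 7.56 in Klf3KO. In both, DKO 1 to 3 lay together above Klf3KO, whereas DKO 4 was just below the Klf3KO arrays for Snord22 and among them for Snord82.

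Neither single mutant had a snoRNA cluster past the threshold. In Klf3KO against WT the median was 0.02, with 32 clusters higher and 24 lower; 0 were called by limma, beside 0.585% of all tested clusters. At an unadjusted p under 0.05, 4 snoRNA clusters (7.14%) passed, compared with 7.83% of all tested clusters. Klf3KO arrays lay above WT without overlap for 5 of 56 snoRNA clusters, beside 2057 of all 23410 tested clusters. They lay below WT without overlap for 1, beside 1334. The largest value was that of Snord53, a methylation guide for large-subunit rRNA in human, with 7.41, 7.27 and 7.49 in Klf3KO, and 6.73, 5.37, 6.02 and 6.83 in WT. All 3 Klf3KO arrays were above all WT arrays, and the difference was 1.15 ± 0.34 with an adjusted p of 0.257. Its DKO arrays had 6.55, 6.86, 7.98 and 7.08, which overlap both. In Klf8gt against WT the median was 0.09, with 40 clusters higher and 16 lower, and 0 were called by limma, beside 0% of all tested clusters. At an unadjusted p under 0.05, 6 (10.7%) passed, compared with 13.4% of all tested clusters. Klf8gt arrays lay above WT without overlap for 1 of 56 snoRNA clusters, beside 578 of all 23410 tested clusters. The count of calls there was 5 without Klf8gt 1. Snord52, another methylation guide, had 6.41, 7.75, 7.26 and 7.12 in Klf8gt and 6.63, 6.46, 5.96 and 6.32 in WT, a difference of 0.79 ± 0.30 (adjusted p = 0.304). Klf8gt 1 was the array that fell among the WT values. Snord95, in Rack1, the gene of a ribosome-bound scaffold protein, had 7.85, 7.36 and 7.47 in Klf3KO, 7.36, 7.70, 7.69 and 7.65 in Klf8gt, and 7.18, 7.13, 7.05 and 7.25 in WT. Both single mutants lay above WT without overlap, by 0.41 ± 0.23 in Klf3KO (adjusted p = 0.701) and 0.45 ± 0.21 in Klf8gt (adjusted p = 0.372). Its DKO arrays, at 7.36, 6.79, 8.15 and 7.76, overlapped all other groups. Snora41, in Eef1b2, differed from WT by 0.52 in DKO, 0.47 in Klf3KO and 0.46 in Klf8gt, none called. These comparisons share WT or DKO arrays with those above, so their values are not independent of one another.

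The interaction (DKO minus Klf3KO minus Klf8gt plus WT) asks whether the difference in DKO departs from the sum of both single differences. Its median over the 56 clusters was 0.16 (quartiles -0.08 and 0.56), and 0 were called by limma, beside 0.00427% of all tested clusters. Unadjusted, 17 (30.4%) passed 0.05, compared with 14.4% of all tested clusters. Above the array medians these shares were 31.2% and 18.4%. The largest estimates were 1.53 ± 0.29 for Snord33 (adjusted p = 0.0949), 1.40 ± 0.25 for Snord15b (adjusted p = 0.0845) and 1.37 ± 0.44 for Snord22 (adjusted p = 0.211). The count was 7 without DKO 4, 3 without Klf8gt 1 and 1 without DKO 2, and the median was -0.02 without DKO 3.

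**Figure D3:**
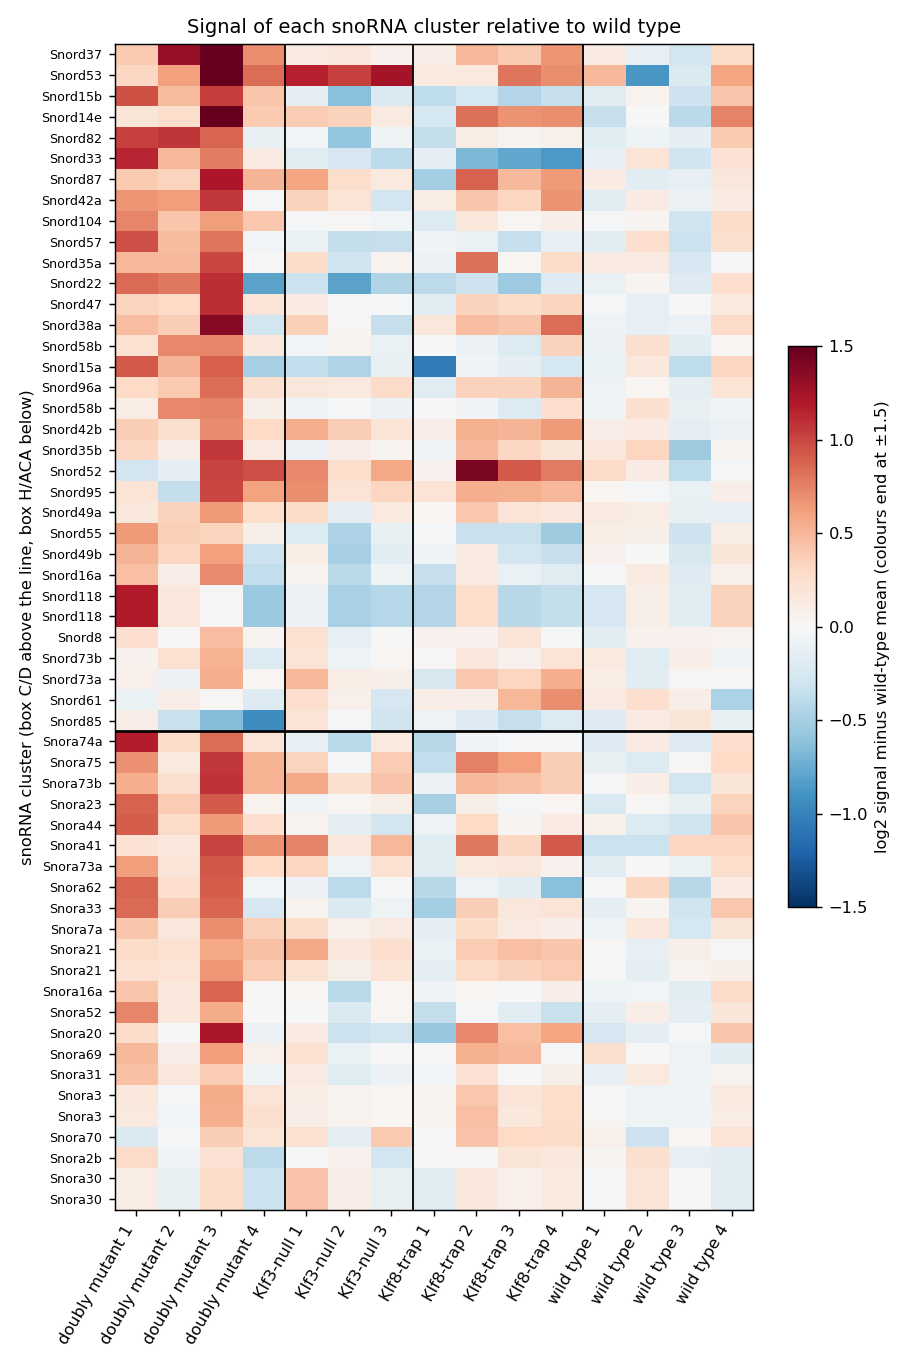
Log2 signal minus the wild-type mean for each of the 56 snoRNA clusters (rows, ordered within class by DKO minus WT) on the 15 arrays (columns); the colour scale ends at ±1.5. Red fills most of the column of DKO 3 in both classes, the column of DKO 4 is mixed, and Snord85 is the box C/D row with blue in DKO 2 to 4.

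Box C/D and box H/ACA clusters were then set side by side. In DKO against WT the median difference was 0.44 over box C/D and 0.37 over box H/ACA clusters, with 31 of 33 and 21 of 23 clusters higher. The medians were 0.47 and 0.28 against Klf3KO, and 0.29 and 0.17 against Klf8gt. Box C/D medians relative to the WT mean were 0.39, 0.35, 0.80 and 0.09 in DKO 1 to 4, and those of box H/ACA were 0.42, 0.16, 0.65 and 0.19. Both classes were highest in DKO 3, and DKO 2 lay above DKO 4 for box C/D and below it for box H/ACA. The per-array difference of the class medians had an SD of 0.13 between arrays of a group. The gap between classes was 0.07 in DKO against WT (-0.02 without DKO 3), 0.12 against Klf8gt, 0.19 against Klf3KO (0.07 without DKO 3) and 0.19 for the interaction. The 3 calls against WT were all box C/D, and the smallest adjusted p of a box H/ACA cluster was 0.0650 (Snora73b). Whether the classes differ in calls was not tested.

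Within a class the members varied. Snora73a and Snora73b, which belong to the U17 family that acts in cutting the rRNA precursor and share the host Snhg3, differed from WT in DKO by 0.51 ± 0.15 (adjusted p = 0.0794) and 0.60 ± 0.17 (adjusted p = 0.0650). Snora73b had 9.13, 8.82, 9.67 and 9.11 in DKO, 9.16, 8.83 and 9.01 in Klf3KO, 8.49, 9.07, 9.02 and 8.95 in Klf8gt, and 8.57, 8.69, 8.31 and 8.76 in WT. Neither its DKO nor its Klf3KO arrays overlapped WT. Of all 23410 tested clusters, 853 were higher without overlap in DKO and 2057 in Klf3KO. Snord14e, of the U14 family that acts in small-subunit rRNA processing, had 10.80, 10.89, 12.68 and 11.01 in DKO, and 10.28, 10.63, 10.23 and 11.37 in WT. The single value of DKO 3 carried much of its difference of 0.72 ± 0.37 (adjusted p = 0.322). At the other end, Snord85 had 7.64, 7.20, 6.89 and 6.61 in DKO, 7.73, 7.52 and 7.24 in Klf3KO, 7.46, 7.34, 7.19 and 7.34 in Klf8gt, and 7.34, 7.66, 7.72 and 7.43 in WT. Its DKO minus WT value of -0.45 ± 0.18 was the lowest of the 56 (adjusted p = 0.180), and it passed the threshold without DKO 1 (-0.64, adjusted p = 0.0178). The other 3 members below 0 were both Snora30 clusters, at -0.01, and Snord61, at -0.05.

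Clusters that share a host did not always have like values. Snord82 and Snora75 in Ncl had DKO minus WT values of 0.72 and 0.60, and DKO minus Klf8gt values of 0.75 and 0.26. Snora44 and Snora16a in Snhg12 had 0.52 and 0.37 against WT, and 0.42 and 0.35 against Klf8gt. Snord33 and Snord35a in Rpl13a had 0.63 and 0.50 against WT, and 1.25 and 0.24 against Klf8gt. These pairs were compared as values only.

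Host transcripts were examined next, since an intronic snoRNA comes from the primary transcript of its host. Hosts were matched by span without strand, so a shared transcript was not shown for each pair. Of the 40 hosts, 23 have a cluster with their symbol alone, and these hold 30 of the snoRNA clusters. The brightest cluster stands for a host that has several. Host clusters were matched by gene and not by probe position, so whether each reads the locus that holds the snoRNA was not tested. In DKO against WT these 30 snoRNA clusters had a median difference of 0.39, and 26 lay above their host's value. The median over the 23 hosts was 0.08 (range -0.05 to 0.39), and no host was called. Only Gas5 among these hosts is non-coding, so this comparison is almost all with protein-coding hosts. The 8 measured of 20 listed non-coding host genes, Gas5 among them, had a median of 0.39 (range 0.04 to 0.79). Snord15b and Snord15a had 0.72 and 0.46, against -0.01 for their host Rps3 (adjusted p = 0.975). Snora62 had 0.50 and its host Rpsa -0.05, and Snord37 had 0.99 and its host Eef2 0.14. Snord57 had 0.55, against 0.25 for Nop56. Snord14e had 0.72, against 0.03 for Hspa8, the gene of a constitutive heat shock protein. Snord47 had 0.48, against 0.39 for the brightest of 4 clusters of its non-coding host Gas5, whose other clusters had 0.42, 0.43 and 0.68. The reverse order held in Rps3a1, where Snord73a and Snord73b had 0.14 and 0.16, against 0.34 for the host.

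**Figure D4:**
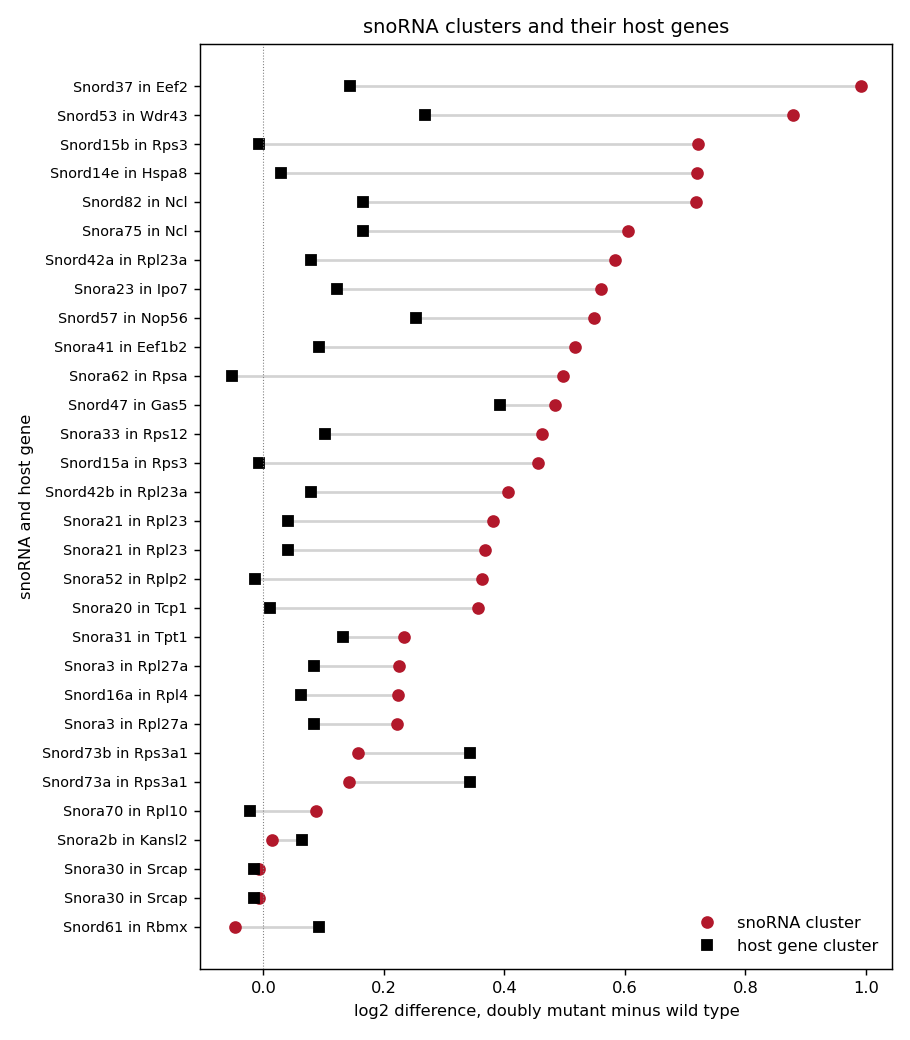
Log2 difference between DKO and WT for the 30 snoRNA clusters whose host gene has a cluster of its own (red circles) and for that host (black squares), joined by a line. Host values lie between -0.05 and 0.39, and 26 of the 30 snoRNA values lie to the right of their host. Gas5 is the only non-coding host shown.

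Against Klf8gt 19 of the 30 snoRNA clusters lay above their host, with medians of 0.19 for the snoRNAs and 0.02 for the hosts, of which 0 were called. Snord15b had 1.07 and Rps3 -0.04, Snora52 had 0.58 and Rplp2 -0.04, and Snord57 had 0.70 and Nop56 0.01. In Klf3KO against WT the medians were 0.06 for the snoRNAs and 0.03 for the hosts, with 16 of 30 snoRNA clusters above. In DKO against Klf3KO they were 0.32 for the snoRNAs and 0.01 for the hosts, with 21 of 30 above, and 1 host, Rps3a1, was called. Its log2 difference there was 1.06 ± 0.17 (adjusted p = 0.0328), against -0.09 for Snord73a and 0.10 for Snord73b in it, and its value in Klf3KO against WT was -0.72 ± 0.17 (adjusted p = 0.0985). Whether the Rps3a1 cluster reads the locus of Snord73a and Snord73b was not tested. Many hosts are bright on the array, as with Rps3 at 12.39 in DKO and 12.40 in WT, and how far brightness limits their differences was not tested. The Rplp2 cluster was dimmer, with a mean of 7.21 over all arrays, against 11.29 for Snora52. How well it reads its host was not tested.

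The proteins of the snoRNA particles showed no called difference. All 4 box C/D proteins (Fbl, the methyltransferase fibrillarin, with Nop56, Nop58 and Snu13) and all 4 box H/ACA proteins (Dkc1, the pseudouridine synthase dyskerin, with Nhp2, Nop10 and Gar1) were measured, and 0 passed the threshold in any of the 6 comparisons. Their medians in DKO against WT were 0.12 and -0.08. Of 13 assembly and Cajal body factors 0 passed, with a median of 0.04. Of 20 listed non-coding host genes 8 had a cluster of their own, of which 0 passed, with a median of 0.39.

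Other small RNAs, not named Snord or Snora, gave 13 clusters, of which 0 were called. Their median difference in DKO was 0.05 against WT, 0.18 against Klf3KO and 0.18 against Klf8gt, and their median interaction was 0.43. At an unadjusted p under 0.05, 15.4% passed against WT, 38.5% against Klf3KO, 23.1% against Klf8gt and 53.8% for the interaction. For the snoRNA clusters these shares were 53.6%, 41.1%, 37.5% and 30.4%. The shifts against Klf3KO and for the interaction are thus not particular to the members. Rn7sk, the RNA that holds the elongation factor P-TEFb inactive, had -0.02 and 0.06 against WT in its 2 clusters. Scarna17, a guide RNA of Cajal bodies, had 0.39 against WT (adjusted p = 0.247) and 0.57 against Klf8gt (adjusted p = 0.0908), with identical values in its 2 clusters. Rnu3a, the U3 RNA, which is itself a box C/D snoRNA acting in rRNA processing, had 0.25 against WT (adjusted p = 0.682) and 0.65 against Klf8gt (adjusted p = 0.185), the largest of the 13 in the comparison with Klf8gt. The difference between the members and this group was not tested.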

How the data were processed

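RNA of 15 samples was measured on 1 Affymetrix mouse array each. The authors deposited log2 signals per transcript cluster, made with Partek and RMA per the submitters' processing notes, which give no versions. Genome build and probe positions are not given in the sources used here. All 15 columns belonged to samples of the study.

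The deposited log2 values were used unchanged. Gene symbols came from the platform annotation, which leaves 12146 of 35556 clusters without a symbol and 1621 with several. The 4 genotype means of each of the 23410 clusters with a symbol were estimated from the 15 arrays (R 4.3.3, limma 3.58.1, lmFit, eBayes without trend, prior degrees of freedom 4.27). Tests are two-sided, adjusted by Benjamini-Hochberg within each of the 6 contrasts, at 0.05, and every adjusted p is from this fit unless another setting is named. Precision is limited by the number of arrays (median SE of a snoRNA cluster in DKO against WT, 0.17). In simulated data for DKO against WT over 23410 clusters, 48% of log2 changes of 0.5 and 96% of changes of 1 were called. The changed clusters were drawn from all tested ones, whose median SE was 0.11, and each varied independently. These rates are therefore not those of the snoRNA clusters. Arrays correlated at 0.974 to 0.992 with each other.

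Same-numbered arrays deviated together most in DKO and Klf8gt (4 pairs, correlations 0.114 to 0.534), by the data and not the labels. The 3 pairs of DKO and Klf3KO had correlations of 0.071 to 0.158. The members and lists were chosen with earlier results of these data known. Named members are all those called, in each contrast and direction the 3 with the largest difference above the array medians, and the 3 brightest of each class. Hosts were matched by span only, since the gene table holds no strand. No fold is given where a group mean lies below the array medians. Alternatives covered leaving out each array, scaling, filters, variance settings, sex and macrophage signal.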

Additional observations from a re-analysis of the deposited data

Results flagged for a closer look

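In groups of 4 arrays, 9 of 78 tests found 1 array far from the others by Dixon's criterion, which chance alone passes in about 1 of 20 groups. DKO 4 was low for Snord22 (9.34, against 10.94 to 11.26 in the other DKO arrays) and for Snord82 (7.51, against 8.50 to 8.69). DKO 3 was high for Snord14e (12.68, against 10.80 to 11.01). Klf8gt 1 was low for Snord14e (10.36, against 11.30 to 11.45), Snord82 (7.26, against 7.66 to 7.73), Snora74a (7.55, against 7.92 to 7.93) and Snord95 (7.36, against 7.65 to 7.70). WT 3 was low for Snord55 (8.28, against 8.69 to 8.71). The median signal over the box C/D clusters was low in WT 1 (7.18, against 7.37 to 7.38).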

How the results depend on the processing

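The median snoRNA difference stayed above 0 in all 28 alternatives for DKO against WT (0.20 to 0.49), Klf3KO (0.19 to 0.51) and Klf8gt (0.09 to 0.35). Counts of called snoRNA clusters moved more. They are given without the share of all tested clusters called in each setting, so they say nothing particular to snoRNAs. With array weights they were 6 in DKO against WT, 14 in Klf8gt against WT, 1 in Klf3KO against WT, 1 in DKO against Klf3KO and 6 for the interaction. Without DKO 1 and Klf8gt 1 together they were 13 in DKO against WT, 3 against Klf8gt, 2 against Klf3KO, 7 in Klf8gt against WT and 3 for the interaction. With macrophage signal as a covariate they were 0 in DKO against WT and against Klf8gt, and 1 in Klf8gt against WT. That signal did not overlap between DKO and WT arrays. Fits of only the groups compared, which hold fewer arrays, called 0 in DKO against WT and 2 against Klf8gt. Against Klf8gt the replicate block called 5 and adjustment over all clusters called 4, and the block changed no count of the other comparisons. Against Klf3KO there was 1 call with array medians subtracted, with clusters of exactly 1 symbol, with a trend and robust fit, and with clusters of a symbol averaged. Leaving out 1 array gave 0 to 11 calls in DKO against WT, 3 to 16 against Klf8gt, 0 to 10 against Klf3KO, 0 to 5 in Klf8gt against WT, 0 in Klf3KO against WT and 0 to 7 for the interaction. The box C/D minus box H/ACA median, 0.12 against Klf8gt and 0.19 for the interaction, was -0.040 and -0.024 with clusters of a symbol averaged, and the interaction's was 0.042 over clusters above the array medians. Leaving out 1 array moved the value against Klf8gt to between -0.027 (without DKO 3) and 0.18 (without Klf8gt 2). Snora30 in DKO against WT changed sign without DKO 2 (0.03), DKO 4 (0.10) or WT 2 (0.06), in a range from -0.11 to 0.10 over single arrays left out, and Snord15a in Klf3KO against WT changed sign with sex as a covariate (0.010). Of 27 alternatives, Snord15b and Snord33 against Klf8gt stayed past the threshold in 26 each, Snord55 in 24, Snord104 in 21, Snora62 in 11, Snora52 in 9, and Snora74a and Snord57 in 8 each. Against WT, Snord104 stayed in 23 of 27, Snord37 in 22 of 26 and Snord15b in 19 of 27. The causes were not tested.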
